A study of Mus musculus with 4 samples.

Results

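The genes described here are 6 that mark the eosinophil, a granulocyte of blood and marrow. Epx, Prg2 and Prg3 encode granule proteins, Il5ra and Siglec5 encode surface receptors, and Alox15 encodes an enzyme of lipid mediator synthesis. They were picked by name out of 37310 genes because Epx and its relatives had been seen to differ widely between the 2 libraries of 3-month-old mice. The values that led to this choice are the counts of these genes in the 4 libraries, so those counts, and the calls between ages made from them, are given below as a description from which nothing further is drawn. All 6 genes were found in the files. Siglec5 had no count in any library, and the other 5 passed the filter on low counts.

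Eosinophils arise in the marrow from granulocyte progenitors under transcription factors of the GATA and C/EBP families. Interleukin 5 drives their expansion and release through a receptor made of the specific alpha chain Il5ra and a beta chain shared with the receptors for interleukin 3 and GM-CSF. Their granules hold a peroxidase, major basic protein and ribonucleases, which are made during maturation in the marrow and released later in tissues.

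The study asked how the transcriptome of skeletal stem and progenitor cells of bone marrow changes with age. C57Bl/6 mice of wild-type genotype (WT in the labels; male in the study's methods) were either 3 months old, called mature, or 24 months old, called elderly. There were 2 libraries per age. RNA of 3 or 4 mice per group was combined, whereas the sample titles number the libraries of an age as mouse 1 and mouse 2, so it is not clear from these sources which mice a library holds. A p-value measures only the spread between these libraries, which may be technical. The labels give the tissue as whole bone marrow and the RNA as selected for poly(A) tails. The study's methods add that some samples were processed as total RNA, under names that the titles here do not carry. Whether a library used here was among them is not clear. According to the study's methods the cells were sorted for the leptin receptor (LEPR+) after exclusion of cells bearing Ter119, CD31 or CD45 (Lin-).

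Library totals ran from 10472117 to 15650518 counts. Lepr itself was counted at 4121 to 6419 CPM (counts scaled to a common library size with TMM factors) and Cxcl12, a chemokine of the same stromal cells, at 7208 to 13713 CPM. Ptprc, which encodes the CD45 used to deplete leukocytes, had 4 and 1 counts in mature and 12 and 8 in elderly libraries, but only 152 of its bases belonged to no other transcript. This matters for every gene below, because 25621 transcripts without a base of their own had 0 counts throughout. A gene with few own bases could therefore be undercounted. Over genes, the counts of the 2 mature libraries differed by 16.05 times sampling noise (chi-square per degree of freedom) and those of the 2 elderly libraries by 34.2 times. This excess over sampling noise does not show whether the libraries of an age came from different mice.

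Promoters of genes whose levels are described next are shown first, since Epx, Ear1 and Ear2 stood in the same order over the mature libraries while Prg3 and Il5ra did not differ beyond counting error. RefSeq windows on GRCm38.p6 of 300 bases, from 250 before to 50 after the annotated start, were at hand for Epx, Prg3, Il5ra, Siglecf (the current symbol of Siglec5), Ear1, Ear2 and Ear6, and those of Prg2 and Alox15 were not used here. Ear1, Ear2 and Ear6 encode granule ribonucleases. Capitals mark GATAA, the core of the sequence GATA factors bind, or its reverse complement TTATC. Each sequence is written 5′ to 3′ on the strand of its gene.
Epx, chr11:87875487-87875786, minus strand: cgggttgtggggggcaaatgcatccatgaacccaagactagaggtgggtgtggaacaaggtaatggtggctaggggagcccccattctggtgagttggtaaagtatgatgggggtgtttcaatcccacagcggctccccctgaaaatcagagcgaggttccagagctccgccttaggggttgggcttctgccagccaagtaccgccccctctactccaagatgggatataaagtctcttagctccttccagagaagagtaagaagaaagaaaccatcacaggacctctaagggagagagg
Prg3, chr2:84987965-84988264, plus strand: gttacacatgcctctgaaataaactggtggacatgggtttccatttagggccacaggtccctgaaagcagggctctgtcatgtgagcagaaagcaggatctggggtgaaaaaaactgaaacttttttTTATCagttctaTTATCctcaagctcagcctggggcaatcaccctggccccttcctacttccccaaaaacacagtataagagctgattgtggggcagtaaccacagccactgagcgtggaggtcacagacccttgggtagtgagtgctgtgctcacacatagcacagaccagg
Il5ra, chr6:106748988-106749287, minus strand: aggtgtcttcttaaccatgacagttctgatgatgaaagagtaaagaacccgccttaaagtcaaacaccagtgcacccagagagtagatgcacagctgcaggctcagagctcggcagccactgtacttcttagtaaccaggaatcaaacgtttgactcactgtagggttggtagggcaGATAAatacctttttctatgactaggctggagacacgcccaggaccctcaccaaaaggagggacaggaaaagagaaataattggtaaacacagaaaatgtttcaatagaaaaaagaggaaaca
Ear1, chr14:43819590-43819889, minus strand: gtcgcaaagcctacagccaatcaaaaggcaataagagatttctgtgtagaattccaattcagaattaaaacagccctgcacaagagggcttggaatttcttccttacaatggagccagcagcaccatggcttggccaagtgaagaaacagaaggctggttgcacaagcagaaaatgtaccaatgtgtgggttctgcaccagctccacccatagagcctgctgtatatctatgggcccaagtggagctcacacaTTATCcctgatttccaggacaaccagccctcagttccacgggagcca
Ear2, chr14:44102404-44102703, plus strand: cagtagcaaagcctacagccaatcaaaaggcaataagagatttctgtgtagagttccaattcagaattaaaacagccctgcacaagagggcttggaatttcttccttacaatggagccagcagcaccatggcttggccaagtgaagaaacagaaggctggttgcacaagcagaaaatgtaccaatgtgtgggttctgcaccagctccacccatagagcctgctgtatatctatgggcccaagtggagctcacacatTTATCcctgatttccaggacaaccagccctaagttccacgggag
The Epx window held no GATAA on either strand. Prg3 held 2 matches, at bases 128 and 140 counted from the 5′ end of the window, and Il5ra held 1 at base 178. Ear1 and Ear2 each held 1, at bases 254 and 257. The windows not printed, of Siglecf and Ear6, held 1 each, at bases 263 and 253. Over all 32851 promoter windows of the same table, 25.4% held at least 1 GATAA. Also searched on both strands were TTNNGNAA of the C/EBP family, found in 40.7% of all windows, and GAGGAA of PU.1, found in 28.3%. Epx held neither, Prg3, Ear1, Ear2 and Ear6 each held 1 TTNNGNAA, Il5ra held 1 GAGGAA, and Siglecf held 2 TTNNGNAA and 1 GAGGAA. None of these overlapped a GATAA match. The windows of Ear1 and Ear2 were identical at 98.0% of positions of the longer sequence and those of Ear1 and Ear6 at 86.3%.

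The 2 mature libraries lay at opposite ends for Epx, Prg2 and Alox15. Epx encodes eosinophil peroxidase, the enzyme that makes hypohalous acids in the granule. Epx had 752 counts in mature replicate 1, 40 in mature replicate 2, 396 in elderly replicate 1 and 393 in elderly replicate 2. On the CPM scale these were 65.1 and 3.45 in mature and 35.7 and 25.6 in elderly libraries. Both elderly libraries thus sat between the mature ones. Epx was 18.9-fold higher in mature replicate 1 than in mature replicate 2, with an exact 95% interval of 13.7 to 26.6, and 1.40-fold (1.21 to 1.61) higher in elderly replicate 1 than in elderly replicate 2. Such intervals, from a binomial split of the counts, cover counting error only.

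Prg2 encodes major basic protein, the cationic core of the granule. It had the most counts of the 6 genes, with 2901 and 247 in mature and 1173 and 1702 in elderly libraries. These were 251 and 21.3 CPM in mature and 106 and 111 CPM in elderly libraries. Again mature replicate 1 was highest and mature replicate 2 lowest, at a ratio of 11.8 (10.3 to 13.5). The elderly libraries differed by less than counting error, at a ratio of 0.955 (0.885 to 1.03). Prg2 is 1 transcript of 838 bases and 6 exons on the plus strand at chr2:84820618-84823789 (mm9), and all its bases were its own, so its count was not reduced by shared bases.

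Prg3 encodes a homologue of major basic protein and lies 4564 bases from Prg2, at chr2:84828353-84834043 (mm9, plus strand). It had 15 and 6 counts in mature and 4 and 11 in elderly libraries. Its ratio between the mature libraries was 2.51, with an interval of 0.920 to 7.89 that includes 1. Only 329 bases of Prg3 over all its transcripts were its own, which is 34.7% of the length of the longest. Per kilobase of own bases, Prg3 stood at 3.94 CPM in mature replicate 1, against 299.5 for Prg2 and 30.6 for Epx. The longest transcripts of Prg2 and Prg3 were identical at 62.4% of positions and shared no run of 40 bases, and neither shared one with any other gene.

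Il5ra, the alpha chain that gives the receptor its specificity for interleukin 5, was near the limit of detection. It lies at chr6:106660378-106695103 (mm9, minus strand), and 1685 of its bases, 51.1% of its longest transcript, were its own. It had 8 and 6 counts in mature and 18 and 8 in elderly libraries, or 0.692, 0.517, 1.62 and 0.521 CPM. Here and below, 4 values in a row are mature replicate 1, mature replicate 2, elderly replicate 1 and elderly replicate 2. The mature libraries did not differ beyond counting error, with a ratio of 1.34 (0.407 to 4.68). Elderly replicate 1 was 3.12-fold (1.29 to 8.28) above elderly replicate 2.

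Siglec5 is the gene of Siglec-F, the inhibitory lectin used to sort mouse eosinophils. It lies at chr7:50606711-50614901 (mm9, plus strand) and had 0 counts in all 4 libraries, which allows up to 0.260, 0.259, 0.270 and 0.195 CPM at 3 counts. Of its 6 transcripts, 3 had no base of their own, and all own bases together came to 219, or 8.40% of the longest transcript. The median for 22380 protein-coding genes was 82.0%. The level of Siglec5 was therefore poorly measured in these files, and its 0 does not show that the RNA was absent. Few own bases did not always prevent counts. Cd68, singled out after its values were seen, had 211 own bases and 122, 202, 108 and 130 counts.

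Alox15 encodes the 12/15-lipoxygenase, which oxygenates arachidonic acid, and lies at chr11:70157654-70165533 (mm9, minus strand). The own bases of its transcripts together came to 85.8% of the length of the longest. It had 211 and 32 counts in mature and 59 and 182 in elderly libraries, or 18.3, 2.76, 5.32 and 11.8 CPM. It followed the order of Epx in the mature libraries, with a ratio of 6.62 (4.55 to 9.93). In the elderly libraries it went the other way from Epx, with a ratio of 0.449 (0.329 to 0.605) between replicate 1 and replicate 2.

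**Figure D1:**
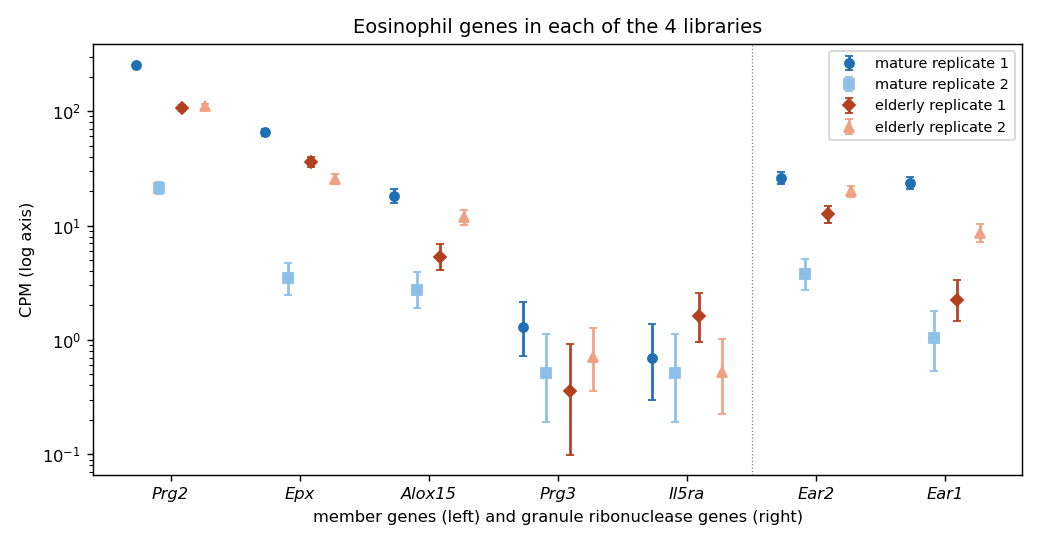
CPM on a log axis of 5 member genes (left) and of the ribonuclease genes Ear2 and Ear1 (right) in each of the 4 libraries; points are single libraries and bars are exact 95% Poisson intervals of the count. Mature replicate 1 is highest and mature replicate 2 lowest for Prg2, Epx, Alox15, Ear2 and Ear1, whereas for Prg3 and Il5ra the intervals of the mature libraries overlap; Siglec5, at 0 everywhere, is not drawn.

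The granule ribonucleases were examined as genes of the same compartment outside the members. They encode secreted RNases of the eosinophil-associated family. Their list was also chosen with earlier results of these data known, so it is not an independent check. Ear1 had 271 and 12 counts in mature and 25 and 133 in elderly libraries. Ear2 had 300 and 44 in mature and 140 and 307 in elderly libraries. Ear6 had 12, 0, 3 and 9. For Ear1 and Ear2, mature replicate 1 was again highest and mature replicate 2 lowest. Summed over the list, ribonuclease counts were 10.5-fold (7.94 to 14.0) higher in mature replicate 1 than in mature replicate 2. Ear5, Ear10, Ear11 and Ear14 were at 0 throughout, and 4 more names of the list had no entry in the annotation. Of the 40-base windows of Ear1 and Ear2, 37.1% and 46.2% also occurred in other ribonuclease genes, and their transcripts were identical at 96.1% of positions, so reads may have been split or lost between them and the level of each is uncertain. Ear1 made up 47.5% (43.3 to 51.6) of the counts of the pair in mature replicate 1 but 21.4% (11.6 to 34.4), 15.2% (10.1 to 21.5) and 30.2% (26.0 to 34.8) in the other 3 libraries.

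Summed over the 6 members, the libraries held 336 and 28.5 CPM in mature and 149 and 149 CPM in the elderly mice. The mature libraries differed 11.8-fold (10.5 to 13.2) and the elderly libraries at a ratio of 0.995 (0.934 to 1.06). Because these are bulk libraries, a library with fewer eosinophils and one with less of these RNAs per eosinophil cannot be told apart. Set against the 14398 genes with a mean of at least 1 CPM, the difference between mature replicate 1 and mature replicate 2 on the log2 scale (prior count 2) had rank 5 for Ear1 at 4.30, rank 7 for Epx at 4.18, rank 9 for Prg2 at 3.55, rank 31 for Ear2 at 2.72 and rank 36 for Alox15 at 2.66. All 3 members at that level were more than 4-fold higher in mature replicate 1, as were 0.667% of the genes (96), while 0.889% (128) were more than 4-fold higher in mature replicate 2. Between the elderly libraries 0.778% of genes differed by more than 4-fold in either direction, and no member did. The order with mature replicate 1 highest and mature replicate 2 lowest held for 5.54% of genes. Among the members and the genes of the eosinophil lists at that level it held for Epx, Prg2, Alox15, Ear1 and Ear2 and for none of the other 16.

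**Figure D2:**
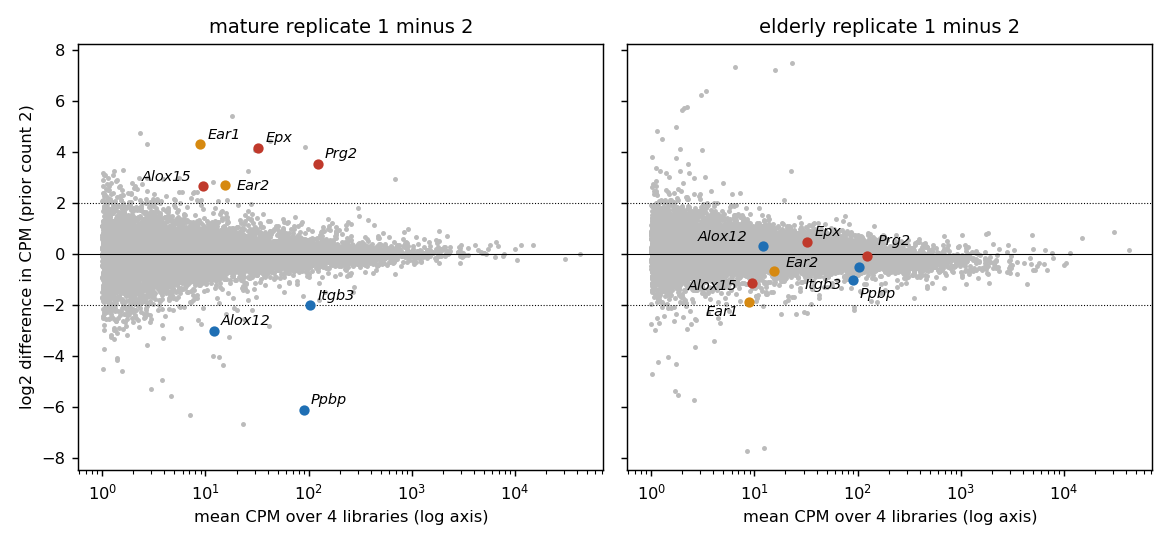
Difference in log2 CPM (prior count 2) between the 2 libraries of an age against the mean CPM over 4 libraries (log axis), for mature (left) and elderly mice (right); grey points are genes with a mean of at least 1 CPM, red points members, orange points ribonuclease genes and blue points genes of the megakaryocyte and lipoxygenase lists, and dotted lines mark a 4-fold difference. Epx, Prg2, Alox15, Ear1 and Ear2 lie above the upper line in the mature panel and between the lines in the elderly panel.

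Within a library, the members did not keep 1 fixed ratio to each other. Prg2 made up 79.4% (78.1 to 80.7) of the counts of Prg2 and Epx together in mature replicate 1, 86.1% (81.5 to 89.9) in mature replicate 2, 74.8% (72.5 to 76.9) in elderly replicate 1 and 81.2% (79.5 to 82.9) in elderly replicate 2. Alox15 against Epx varied more, with 21.9% (19.3 to 24.7), 44.4% (32.7 to 56.6), 12.97% (10.02 to 16.4) and 31.7% (27.9 to 35.6) in the same order. The 4 intervals for Alox15 did not overlap except those of mature replicate 2 and elderly replicate 2. For Ear2 the shares were 28.5% (25.8 to 31.4), 52.4% (41.2 to 63.4), 26.1% (22.4 to 30.1) and 43.9% (40.1 to 47.6). For Prg2 and Alox15 as for Ear2, both replicates numbered 2 lay above both numbered 1, and all these shares were set against Epx. Ear1 stood at 26.5% (23.8 to 29.3), 23.1% (12.5 to 36.8), 5.94% (3.88 to 8.64) and 25.3% (21.6 to 29.2), with elderly replicate 1 apart from the other libraries. Elderly replicate 1 thus had more Epx than elderly replicate 2 and as much Prg2 within counting error. Set against Epx, its shares of Prg2, Alox15, Ear1 and Ear2 were all lower.

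**Figure D3:**
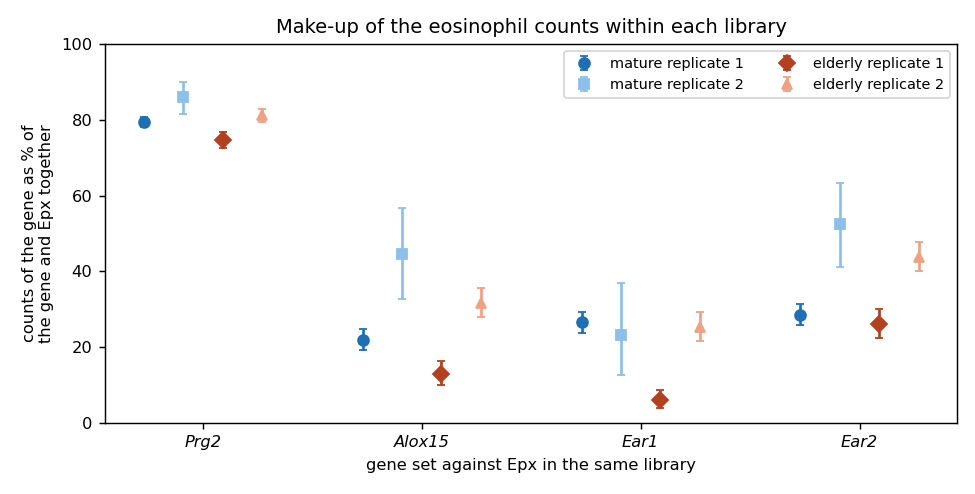
Counts of Prg2, Alox15, Ear1 and Ear2 as a percent of the counts of that gene and Epx together, in each library; bars are exact 95% binomial intervals. Prg2 stays between 74.8% and 86.1%, whereas Ear1 falls to 5.94% in elderly replicate 1.

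Across ages, the libraries overlapped for each of the 5 members with counts. Mean levels in mature and elderly libraries were 34.3 ± 43.6 and 30.6 ± 7.16 CPM for Epx (SD, n = 2 per age), 136 ± 162 and 108 ± 3.55 CPM for Prg2 and 10.5 ± 11.0 and 8.58 ± 4.61 CPM for Alox15. Fitted log2 fold changes of elderly over mature were -0.16 for Epx, with a 95% interval of -1.84 to 1.51, and -0.33 (-1.81 to 1.15) for Prg2. They were -0.28 (-1.65 to 1.09) for Alox15, -0.72 (-2.63 to 1.20) for Prg3 and 0.79 (-1.06 to 2.63) for Il5ra. The intervals reach beyond 2-fold in both directions, so they do not show that the ages had equal levels. Their width also depended on the fit. The SE for Epx was 0.77 here, 1.60 with DESeq2, 1.71 with edgeR's robust fit and 0.37 without a filter on low counts. In the same order it was 0.68, 1.42, 1.51 and 0.32 for Prg2 and 0.63, 1.27, 1.28 and 0.39 for Alox15. Of the 5 members tested, 0 were called by edgeR's quasi-likelihood test at an adjusted p under 0.05, 0 had an unadjusted p under 0.05, and 0 were called by DESeq2 or by the exact test, where edgeR called 2.36% of 22214 genes (1.94% higher and 0.423% lower in elderly mice). The ages overlapped in all 5, whereas they did not overlap for 40.9% of genes.

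The sign of the age difference rested on which mature library was used. Without mature replicate 1, Epx was higher in elderly mice by 3.15 ± 0.43 (SE) on the log2 scale, Prg2 by 2.35 ± 0.36 and Alox15 by 1.66 ± 0.54. Without mature replicate 2, the same genes were at -1.12 ± 0.32, -1.24 ± 0.32 and -1.09 ± 0.41. By edgeR's adjusted p, 2 members (Epx and Prg2) were called higher in elderly mice in the first case and 1 (Prg2) lower in the second. In both cases the single mature library was assumed to vary like the elderly pair.

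Other genes of the eosinophil program were compared between the ages in the same fit. In 6 lists (ribonucleases, receptor partners, other surface receptors, lipid mediator enzymes, transcription factors, and growth factors and attractants) 42 genes were found beside the members and 33 were tested. Of these, 2 were called and both rose with age, against 2.36% of all genes tested. In edgeR 8 had an unadjusted p under 0.05, but the share of all genes under it was not counted, so nothing is read from this. Their median log2 fold change was 0.51, with 22 above and 11 below 0, beside -0.0059 for all genes tested. In 17 of the 33 the ages did not overlap, beside 40.9% of all genes tested.

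The transcription factors held both calls. Zfpm1, which encodes FOG1, a cofactor of GATA factors, had 186 and 201 counts in mature and 784 and 775 in elderly libraries. It rose by 1.86 ± 0.25 (SE) on the log2 scale with an edgeR adjusted p of 0.0026. Cebpe, which encodes the C/EBP factor of late granulocyte maturation, had 54 and 55 counts in mature and 199 and 268 in elderly libraries and rose by 1.91 ± 0.29 (edgeR adjusted p = 0.0056). Both also act outside eosinophils, FOG1 in erythroid and megakaryocytic cells and C/EBP epsilon in neutrophils. Gata1, required for the eosinophil lineage as for erythroid cells, had 76, 84, 323 and 195 counts and a log2 fold change of 1.59 ± 0.38 that narrowly missed the threshold (edgeR adjusted p = 0.050), while DESeq2 called it (adjusted p = 0.0052). Gata2 had 1, 2, 10 and 3 counts. Spi1, named Sfpi1 in the annotation, encodes PU.1 and had 54, 59, 122 and 172 counts, a log2 fold change of 1.18 ± 0.31. Cebpa, Cebpb, Id2, Xbp1 and Trib1 lay between -0.44 and 0.38 on that scale. The levels of Zfpm1, Cebpe and Gata1 in the 2 mature libraries differed by at most 0.14 on the log2 scale (-0.14 for Gata1, -0.11 for Zfpm1 and -0.02 for Cebpe), whereas Epx differed by 4.18. Trib1, a regulator of C/EBP alpha turnover, was the factor that differed most between them, at 1.14.

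Receptor partners and enzymes of lipid mediator synthesis did not show the split of the mature libraries either. Csf2ra, the alpha chain for GM-CSF, had 558, 425, 751 and 1138 counts and Csf2rb2, a beta chain that pairs with the interleukin 3 receptor of mice, had 19, 13, 42 and 45. Csf2rb, the beta chain that Il5ra uses, had 0, 0, 1 and 3 counts on 307 own bases, and Il3ra had no base of its own. The log2 fold changes were 0.74 ± 0.22 for Csf2ra and 1.27 ± 0.50 for Csf2rb2 and neither was called (edgeR adjusted p = 0.13 and 0.33). Among other surface receptors, Ptgdr2 (Gpr44 in the annotation), the prostaglandin D2 receptor of eosinophils and basophils, had 14 and 36 counts in mature and 28 and 55 in elderly libraries, so that mature replicate 2 was the higher of its pair. Ccr3, the eotaxin receptor, had 3 own bases and 0 counts, and 5 further receptors had 8 counts or fewer in every library.

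Lta4h and Alox5ap, which act in leukotriene synthesis, had 1468, 1458, 2117 and 3333 and 79, 48, 150 and 186 counts. Their log2 fold changes were 0.69 ± 0.19 and 1.22 ± 0.34, with both elderly libraries above both mature ones. Neither was called by edgeR (adjusted p = 0.095 and 0.099), while DESeq2 called Lta4h (adjusted p = 0.026) but not Alox5ap. Alox5 had 10, 23, 16 and 29 counts, and Ltc4s, which makes leukotriene C4, had at most 3 counts on 87 own bases. Signals that act on eosinophils were low. Il5 had 6, 12, 8 and 8 counts, Il4 had 1, 2, 11 and 3, Il13 had 6, 5, 2 and 10, and Ccl11, which encodes eotaxin, had 0, 3, 13 and 8. Tslp, an epithelial and stromal cytokine, had 70, 36, 23 and 71 counts, the most of the list. Il3 and Csf2 were at 0 throughout. Of the 7 tested, 0 were called by edgeR, DESeq2 or the exact test and 0 had an unadjusted p under 0.05 in edgeR.

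**Figure D4:**
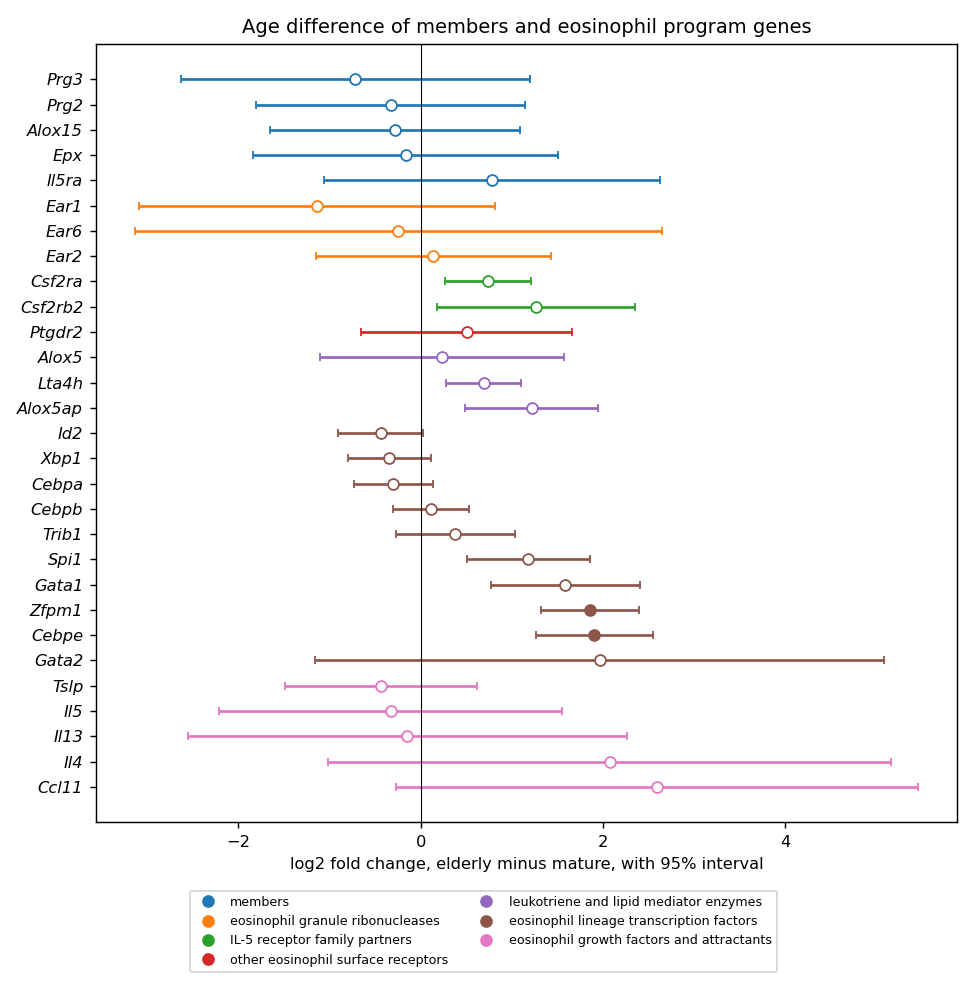
Log2 fold change of elderly over mature with its 95% interval for members and genes of the eosinophil program that were tested and had at least 10 counts in a library; colours give the list and filled points the genes called at an adjusted p under 0.05. The intervals of all 5 members include 0, and only Zfpm1 and Cebpe are filled.

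Among relatives by sequence with at least 10 counts in a library, none had mature replicate 1 highest and mature replicate 2 lowest. The others had too few counts to compare. Mpo, the peroxidase of neutrophils, had 1, 6, 10 and 10 counts and no other heme peroxidase gene reached 10. Siglece, the lectin of neutrophils and macrophages, had 49, 36, 122 and 185 counts and rose by 1.65 ± 0.33 (edgeR adjusted p = 0.024). Cd33 had 7, 4, 5 and 18 counts on 83 own bases. Alox12, the platelet lipoxygenase, lies 88799 bases from Alox15 and went the opposite way between the mature libraries, with 25 counts in replicate 1 and 216 in replicate 2 (169 and 190 in elderly libraries). Aloxe3, an epidermal lipoxygenase, had 14, 11, 32 and 15 counts.

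Most neighbours of the members that could be compared did not differ more than 4-fold between the mature libraries. Only those of Epx, Prg2 and Alox15 bear on the members' difference. Prg3 and Il5ra did not differ beyond counting error there, and Siglec5 had no counts. Within 100 kb on mm9 the 6 genes had 38 different neighbours, Prg2 and Prg3 among them as neighbours of each other, and 16 of these had a mean of at least 1 CPM. Of the 16, 2 differed more than 4-fold between the mature libraries, Prg2 as the neighbour of Prg3 and Alox12 as the neighbour of Alox15. The neighbours of Epx on chromosome 11 (chr11:87677502-87689038, minus strand) that reached this level differed by 0.16 and 1.16 on the log2 scale. Slc43a3, 21952 bases from Prg2 and singled out after its values were seen, had 733, 464, 1185 and 1553 counts and rose with age (log2 fold change 1.01, edgeR adjusted p = 0.049).

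Ranked by likeness to Epx over the 4 libraries (Euclidean distance between centred log2 CPM), Prg2 was the nearest of 14398 genes at a distance of 0.72, beside a median of 3.19. Ear2 ranked 15, Alox15 ranked 71 and Ear1 ranked 163. The other 9 of the 10 nearest were E030010N08Rik, Hpse2, Scn4b, 4930551L18Rik, RP23-341C5.10, Chaf1b, Ahsg, C030005K06Rik and Mdk. All 9 were low, with 0 to 4 counts in mature replicate 2 and at most 44 in any library, so their place in this order rests on few reads.

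Markers of other blood cells also differed between the mature libraries, and their part in the members' difference was not tested. Summed CPM of 18 neutrophil markers was 2353 and 1340 in mature and 5110 and 4962 in elderly libraries, a mature ratio of 1.76. S100a8, with 8886, 5653, 19220 and 20902 counts, was the most abundant of them, and 8 of 17 tested were called higher in elderly mice. Erythroid markers (11 genes) stood at 345, 145, 1027 and 1003 CPM, a mature ratio of 2.38, with Slc4a1 at 1824, 526, 4779 and 8628, and 5 of 9 tested were called higher. The order of the libraries for both lists therefore differed from that of the members, since both elderly libraries lay above mature replicate 1.

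Mast cell and basophil markers (10 genes), which share progenitors and several receptors with eosinophils, stood at 72.7, 45.9, 107 and 128 CPM, a mature ratio of 1.58. Of 6 tested, 0 were called by edgeR or the exact test and 1 by DESeq2. An unadjusted p under 0.05 in edgeR was found for 5, without a count over all genes beside it. Mcpt8, a basophil protease, had 56, 23, 89 and 108 counts and Hdc, the histamine-forming enzyme, had 665, 415, 931 and 1405. The mast cell proteases Mcpt4, Cma1, Tpsb2 and Tpsab1 were at 0 in every library. Macrophage markers (9 genes) summed to 26.6, 26.5, 52.4 and 87.3 CPM. C1qa, C1qb and C1qc, singled out after their values were seen, were however each more than 4-fold higher in mature replicate 1. They had 21, 25 and 14 counts there and 1, 4 and 2 in mature replicate 2, so these differences rest on few reads. Csf1r had 12, 29, 22 and 24 counts, Mrc1 had 111, 67, 208 and 600, and 4 of 7 tested were called higher in elderly mice.

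Megakaryocyte and platelet markers (12 genes) went the opposite way from the members. They summed to 65.8 and 412 CPM in mature and 222 and 342 CPM in elderly libraries and were 6.26-fold higher in mature replicate 2. Ppbp, a platelet chemokine, had 28 counts in mature replicate 1 and 2057 in mature replicate 2, and Itgb3, an integrin of platelets, had 412 and 1657. Of 11 tested, 0 were called by edgeR, DESeq2 or the exact test and 0 had an unadjusted p under 0.05 in edgeR. The remaining lists differed less between the mature libraries. The ratio of replicate 1 to replicate 2 was 1.11 for B-lineage, 1.21 for plasma cell, 0.742 for T and NK cell and 0.652 for endothelial markers, and 0.980 for the 10 markers of LEPR+ stromal cells. Called higher in elderly mice by edgeR were 2 of 6 plasma cell, 1 of 7 T and NK cell and 1 of 7 endothelial markers. Of the 8 B-lineage and 10 stromal markers 0 were called by edgeR or DESeq2 and 1, a B-lineage marker, by the exact test. In each list 3 had an unadjusted p under 0.05 in edgeR, again without a count over all genes beside it.

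**Figure D5:**
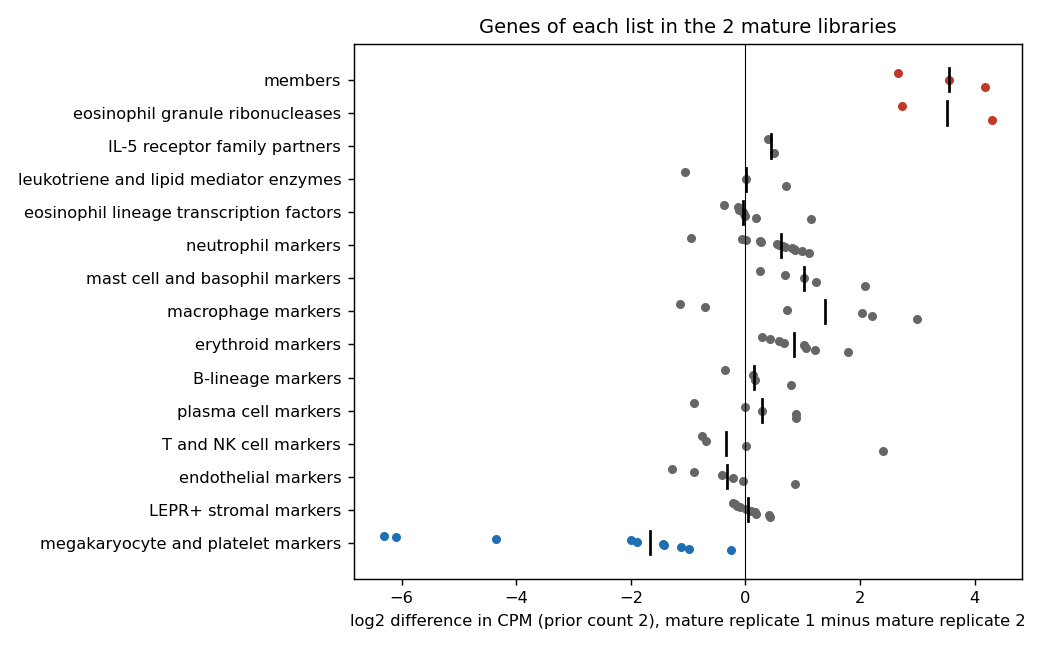
Difference in log2 CPM (prior count 2) between mature replicate 1 and mature replicate 2 for genes with a mean of at least 1 CPM, by list; each point is a gene and each bar the median of its list. The 3 members and 2 ribonuclease genes lie at 2.66 to 4.30, stromal markers close to 0, and megakaryocyte and platelet markers below 0.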

How the data were processed

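The authors removed adapters with cutadapt, mapped reads with HISAT2 to mm9 and counted them with featureCounts; versions, the strand setting and the treatment of shared bases are not given in the sources used here. The deposited values are raw counts, whole numbers of reads per Ensembl transcript for each of 4 libraries. Transcripts were matched to GENCODE M1 (388 of 95883 had no match) and summed to 37310 genes. Groups came from the titles in the labels.

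Genes with more than 2 counts over the 4 libraries (22214) were scaled by TMM (factors 0.970, 0.990, 1.06 and 0.983) and compared between ages with edgeR 4.0.16 (R 4.3.3) by the two-sided quasi-likelihood test, 2 libraries against 2, with Benjamini-Hochberg adjustment and a call at an adjusted p under 0.05. Log2 differences between 2 libraries of an age used a prior count of 2. Intervals of ratios and shares are exact 95% binomial ones and cover counting error only. The members and gene lists were chosen with earlier results of these data known.

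Genes named with values are the members; genes of the 6 program lists and 3 lists of relatives with at least 10 counts in a library; the first and the most abundant gene of each other list where its values bear on the members; the 10 genes nearest to Epx; Lepr, Cxcl12 and Ptprc; and those said to be chosen after their values were seen or named as a neighbour or an uncounted receptor. A gene within this rule is not reported here. Alternatives were DESeq2 1.42.0, the exact test at a dispersion of 0.2, filterByExpr, no filter, library size alone, TMM factors computed without histone, hemoglobin and immunoglobulin genes, a robust fit, the replicate number as a block, protein-coding genes only, single transcripts, a prior count of 2 in the fit, and each library left out.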

Additional observations from a re-analysis of the deposited data

How the results depend on the processing

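The 11.8-fold ratio of member counts between the mature libraries lay between 11.5 and 11.9 under other scalings, with the leading transcript of each gene and without Prg2, the last chosen after seeing the data. With each library left out in turn, 0 to 2 members, 0 to 4 program genes and 0 to 521 genes in all were called, with 0 genes without either elderly library, and the log2 fold changes ran from -1.12 to 3.15 for Epx, -1.24 to 2.35 for Prg2, -1.09 to 1.66 for Alox15, -1.30 to 0.09 for Prg3 and -0.19 to 1.41 for Il5ra. All other alternatives called 0 members.

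In place of 524 genes, DESeq2 called 706, the exact test 208, no filter 1084 and library size alone 629. The robust fit called 879, the replicate block 1276 and protein-coding genes only 663 of 15896. In place of 2 program genes, DESeq2 called 4, the exact test 0, no filter 7, library size alone 4, the robust fit 7, the replicate block 7 and protein-coding genes only 4. Same-numbered deviations were hardly correlated over 14398 genes (r = 0.043). With 1 deviation per age, this cannot settle whether the replicate numbers pair the libraries. With the block, the log2 fold change was 0.81 ± 0.28 (SE) for Epx, 0.52 ± 0.25 for Prg2 and 0.08 ± 0.36 for Alox15, of the other sign than without it, and none was called. The causes were not tested. Depth limits Prg3 and Il5ra, and own bases limit Siglec5, Ccr3 and Il3ra.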

Other observations

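A few RNAs outside the eosinophil lists, singled out after their values were seen, also had mature replicate 1 above mature replicate 2. So did 7254 of the 14398 genes with a mean of at least 1 CPM, 96 of them by more than 4-fold. Lars2, a mitochondrial leucyl-tRNA synthetase gene, had 10548 and 1383 counts in mature and 5388 and 18580 in elderly libraries. Gm15564 had 623, 27, 288 and 1313 counts and AC113316.1 had 1152, 61, 526 and 3343. In contrast to Epx and Prg2, these 3 were higher in elderly replicate 2 than in mature replicate 1. The mitochondrial gene mt-Nd6 had 318 and 43 counts in mature and 131 and 62 in elderly libraries. Whether these RNAs and the members differ between the libraries for a common reason was not tested.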
